A study of Mus musculus with 16 samples.

Results

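Complement is the part of innate immunity in which blood proteases activate each other in a cascade, and the 9 genes described here encode its C1 proteases and several of the proteins that act after or against them. They are C1s1, C1ra and C1rb (proteases of the C1 complex), C4b and C3 (the proteins cut further down), Cfd (the protease of the alternative pathway), and Serping1, Cd55 and Cd59a (inhibitors). The 9 were picked by name out of 11710 genes in the count table, and all 9 were present and passed the filter on low counts. C1s1, C1ra and C1rb were picked because their counts fell at separate levels among samples of the MRL/MpJ strain, so their MRL levels are given as a description with no test. C1rb passed the low-count filter through the MRL samples only.

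RNA sequencing was done on rotator cuff muscle of C57BL/6J mice (BL6, a common reference strain) and MRL/MpJ mice (MRL, an inbred strain known for unusual healing of ear wounds), in 4 groups of 4 samples. In each strain 1 group was unoperated, and the other had undergone tenectomy (removal of tendon tissue) of a rotator cuff muscle together with its denervation. The series text and the sample labels name different rotator cuff muscles, and age, sex and time since surgery are not given in the sources used here. The labels do not say that replicates came from separate animals, so p-values measure only the spread between these samples, which may be technical.

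The classical pathway of complement starts when C1q, the recognition protein of the C1 complex, binds its target. C1r then activates itself and cuts C1s, and active C1s cuts C4 and C2 to form the enzyme that cuts C3. Factor D, the product of Cfd, does the corresponding step of the alternative pathway and is secreted in large amounts by fat cells. In the mouse the genes for C1r and C1s are duplicated, giving C1ra and C1rb, and C1s1 and C1s2. C1ra and C1s1 are the broadly expressed copies, and C1rb has been described mainly from the male reproductive tract.

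In the GENCODE annotation of GRCm38 the C1 protease genes lie together on chromosome 6. C1ra (ENSMUSG00000055172) spans chr6:124512405-124523443 on the plus strand, C1s1 (ENSMUSG00000038521) spans chr6:124530345-124542359 on the minus strand, and C1rb (ENSMUSG00000098470) spans chr6:124570294-124581171 on the plus strand. C1ra and C1rb are near copies: over 2118 aligned coding bases they differed at 42 positions (98.0% identity), and the longest stretch without a difference was 757 bases. Of all 50-base words in the annotated transcripts of C1ra, 49.2% occurred in no other gene, and for C1rb this was 39.5%. With 100-base words these shares were 64.1% and 57.3%. Reads from the shared stretches cannot be told apart, so the split of counts between C1ra and C1rb is uncertain, and how reads matching both were counted is not given in the sources used here. The 100 coding bases in which the copies differ most, with the 13 differing bases in capitals, show where reads can separate them (C1ra at chr6:124522637-124522736 and C1rb at chr6:124580683-124580782, both plus strand, GRCm38).
C1ra: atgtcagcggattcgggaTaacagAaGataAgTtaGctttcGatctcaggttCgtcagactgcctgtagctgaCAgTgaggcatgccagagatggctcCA
C1rb: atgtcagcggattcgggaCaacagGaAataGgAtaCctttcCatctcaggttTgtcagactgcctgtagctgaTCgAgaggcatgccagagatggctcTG

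C1s1 is less like its own copy, C1s2, which was not analysed here. The coding sequences differed at 90 of 2064 aligned bases (95.6% identity), and 78.2% of the 50-base words of C1s1 occurred in no other gene. For 100-base words this share was 93.1%. The 100 coding bases in which this pair differs most hold 22 differences, again in capitals and shown for comparison with the C1r pair (C1s1 at chr6:124531452-124531551 and C1s2 at chr6:124625674-124625773, both minus strand, GRCm38). An antisense gene, Gm16567, is annotated over most of C1s1 on the opposite strand, and the use of strand in counting is not given in the sources used here. Reads from any exon stretches that C1s1 and Gm16567 share could therefore not be told apart, and the extent of such stretches was not measured.
C1s1: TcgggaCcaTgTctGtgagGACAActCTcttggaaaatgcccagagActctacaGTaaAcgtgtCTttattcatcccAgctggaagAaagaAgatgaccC
C1s2: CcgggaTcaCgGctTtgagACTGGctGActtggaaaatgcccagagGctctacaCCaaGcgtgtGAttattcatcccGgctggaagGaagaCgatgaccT

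The values below are CPM, counts scaled to 1000000 per sample, after TMM scaling (a correction for differences in composition between libraries). Samples held 24323862 to 43552964 counts, and 3 counts, taken as the floor of detection, correspond to 0.0718 to 0.122 CPM. Skeletal muscle fibre markers (Acta1, Ckm, Myh4 and others) were detected in every sample at a summed 46623 to 139410 CPM. None of the 5 hepatocyte markers listed was analysed here. Some libraries stood apart: replicate 4 of operated BL6 had a summed fibroblast marker level of 7376 CPM against 1895 to 3063 in the other operated BL6 samples. Its macrophage markers summed to 523 CPM against 82.0 to 155. Replicate 1 of unoperated MRL had macrophage markers at 295 CPM against 74.7 to 96.4 in the rest of its group. Replicate 4 of operated MRL had endothelial markers at 308 CPM against 635 to 784 in the rest of its group.

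C1s1, the protease that cuts C4 and C2, was at ordinary levels in 4 MRL samples and almost absent from the other 4. In unoperated MRL muscle it stood at 0.0917, 25.9, 29.3 and 27.4 CPM in replicates 1 to 4. In operated MRL muscle it stood at 0.0406, 0.0347, 0.0355 and 56.1 CPM. The low values rested on 3 counts in unoperated replicate 1 and on 1 count each in operated replicates 1, 2 and 3, so all 4 lay at or under the floor. The other 4 MRL samples held 908 to 2133 counts. In BL6 no sample was low: unoperated muscle had 41.9, 31.7, 27.8 and 26.1 CPM, and operated muscle had 55.7, 33.7, 56.0 and 115 CPM. The low MRL samples did not match the surgical groups exactly, since unoperated replicate 1 was low and operated replicate 4 was high. Operated replicates 1, 2 and 3 were low and unoperated replicates 2, 3 and 4 were not, and the part of surgery was not tested.

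C1ra, the C1r gene used in BL6, was low in the same 4 MRL samples as C1s1, but it stayed above the floor in all of them. Unoperated MRL muscle had 0.764, 9.92, 8.35 and 9.94 CPM, and operated MRL muscle had 0.365, 0.416, 0.852 and 18.2 CPM. The low samples held 9 to 25 counts of C1ra. Unoperated BL6 muscle had 10.7, 6.63, 5.63 and 5.95 CPM, and operated BL6 muscle had 13.0, 7.24, 14.4 and 30.3 CPM. The 4 MRL samples that were not low lay within the range of the BL6 samples, that of 18.2 CPM only because of operated BL6 replicate 4.

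C1rb ran the opposite way. It was highest in the 4 MRL samples in which C1s1 and C1ra were low. Unoperated MRL muscle had 15.6, 1.20, 1.32 and 1.79 CPM, and operated MRL muscle had 14.9, 14.0, 24.3 and 3.92 CPM. The MRL samples with little C1rb still held 41 to 149 counts of it. In BL6 every sample had between 0 and 2 counts of C1rb (0 to 0.0716 CPM), below the floor, so no fold change was computed there. All 8 MRL samples were therefore above all 8 BL6 samples for C1rb, in the 4 with low C1s1 and in the 4 with high C1s1 alike.

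**Figure D1:**
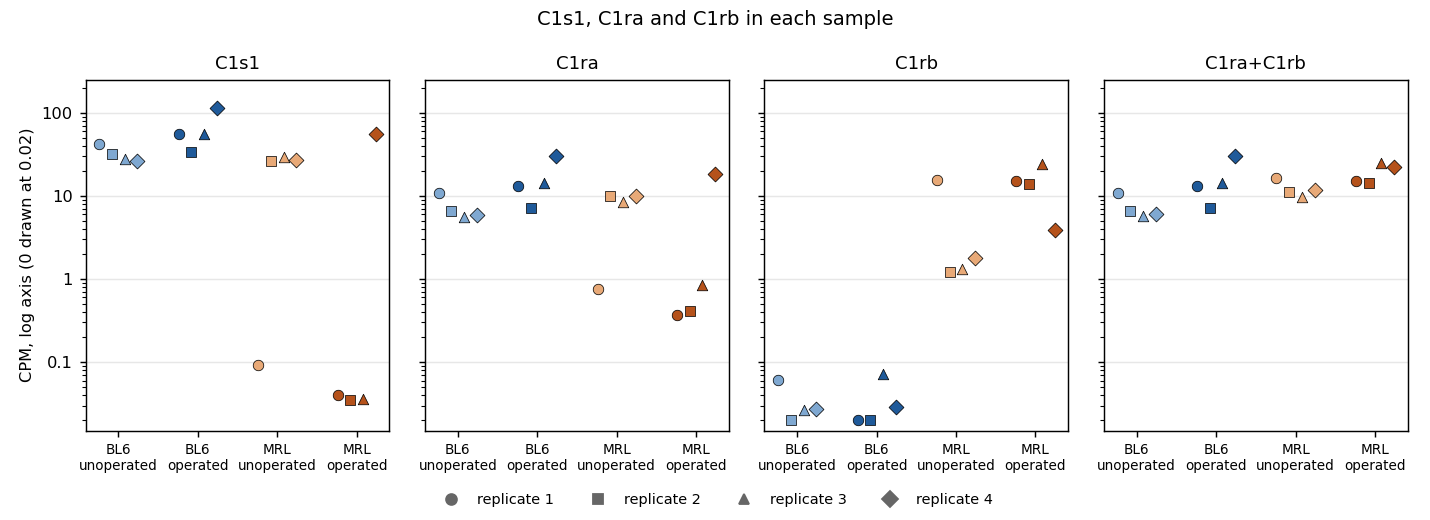
CPM of C1s1, C1ra, C1rb and the sum of C1ra and C1rb on a log axis, by group, with 1 point per sample and the marker giving the replicate number (0 is drawn at 0.02). Unoperated replicate 1 and operated replicates 1, 2 and 3 of MRL are low for C1s1 and C1ra and high for C1rb, while the summed panel runs from 5.66 to 30.3 CPM with no low samples.

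Added together, C1ra and C1rb no longer fell at separate levels in MRL. The sum was 16.3, 11.1, 9.68 and 11.7 CPM in unoperated MRL and 15.3, 14.4, 25.2 and 22.1 CPM in operated MRL. In BL6 it was 10.8, 6.63, 5.66 and 5.98 CPM without surgery and 13.0, 7.24, 14.5 and 30.3 CPM with it. The samples low in C1s1 had sums of 14.4 to 25.2 CPM, inside the range of the BL6 samples. That range passed 14.5 CPM only in operated BL6 replicate 4. The sums of 16.3, 15.3 and 25.2 CPM were above every other BL6 sample. The sum thus had no low samples where C1s1 did.

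What did differ was the share of the summed counts assigned to C1rb. It was 95.3%, 10.8%, 13.7% and 15.2% in unoperated MRL and 97.6%, 97.1%, 96.6% and 17.8% in operated MRL, against 0 to 0.557% in BL6. The 95% Wilson intervals, which cover counting error only, ran from 93.2 to 98.7% over the 4 high MRL shares and from 8.22 to 20.5% over the 4 lower ones. In the 3 BL6 samples with no count of C1rb the upper limit of the interval was 1.18 to 2.01%, and the highest upper limit in BL6 was 2.60%, with 1 of 214 counts. The MRL reads were set against a genome of the C57BL/6J type (mm10 per the submitters' processing notes), and the part of this in the split between the copies was not tested.

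**Figure D2:**
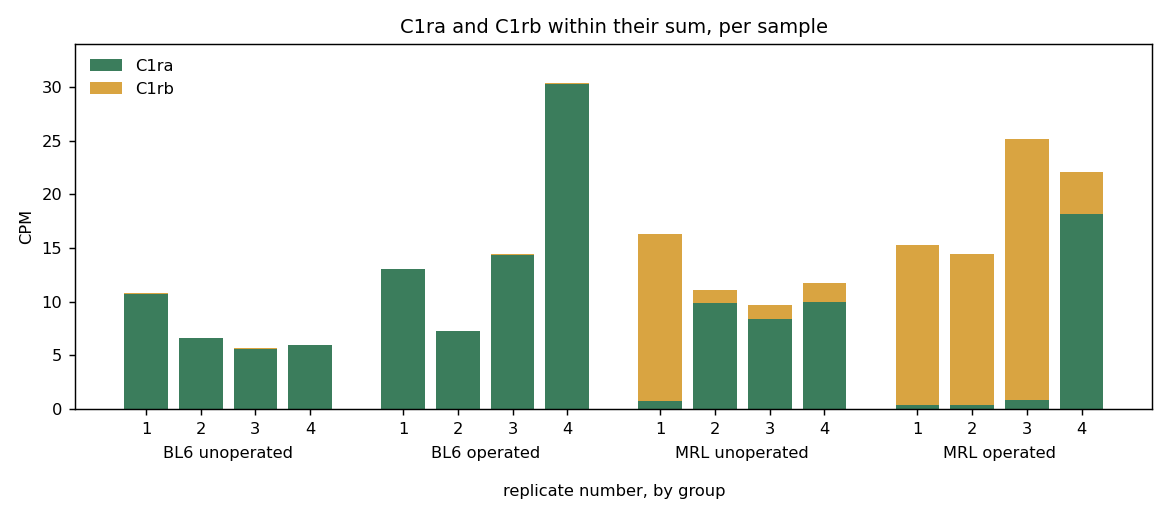
Stacked bars of C1ra and C1rb CPM in each of the 16 samples, ordered by group and replicate number. C1rb makes up 95.3 to 97.6% of the sum in 4 MRL samples, 10.8 to 17.8% in the other 4, and at most 0.557% in BL6.

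Per kilobase of annotated exon, C1s1 was above the C1r sum in BL6. C1s1 had 8.34 to 36.7 CPM per kilobase there, and C1ra plus C1rb had 1.90 to 10.2. In MRL the C1r sum had 3.35 to 10.3 CPM per kilobase. C1s1 was again above it in 4 MRL samples and far below it in the other 4, where C1s1 had 0.0111 to 0.0293.

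To see how unusual these levels were, the 8 MRL samples were ordered by log2 CPM for every gene and the largest gap between neighbours was taken. The median gap over 11709 genes was 0.30 and the 99th percentile was 1.57. C1s1 had a gap of 7.41, which ranked 1. C1ra had 3.20 at rank 13 and C1rb 1.82 at rank 77, each with 4 samples on either side of the gap. For C1ra plus C1rb the gap was 0.43. These values chose the genes and are a description. Among the 8 BL6 samples the gaps of C1s1 and C1ra were 1.04 and 1.07, against a median of 0.41.

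Of the remaining members, Cfd had an MRL gap of 1.98 (rank 60) with 4 samples on either side, but there the gap lay between the unoperated and the operated group. C4b had a gap of 0.98 and C3 had 0.50. Cd55, Serping1 and Cd59a had gaps of 0.42, 0.28 and 0.19. None of C3, C4b, Serping1, Cd55 and Cd59a had its gap at the 4 samples with low C1s1. Among 21 other complement genes the largest MRL gap was that of Itgb2, a subunit of complement receptor 3, at 2.77, with 7 samples below it.

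**Figure D3:**
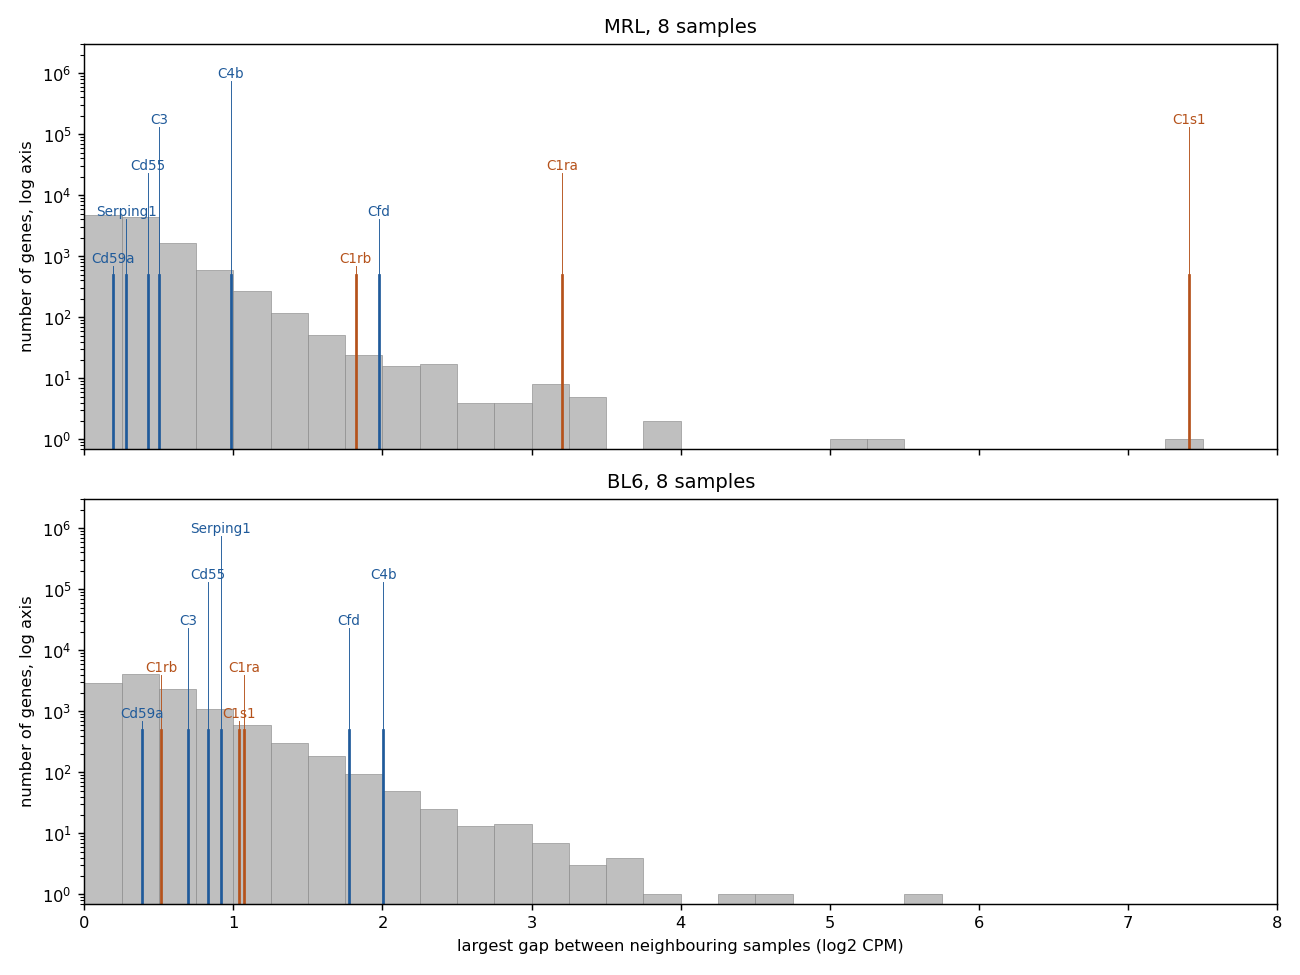
Histogram of the largest gap between neighbouring samples in log2 CPM over 11709 genes, for the 8 MRL samples (top) and the 8 BL6 samples (bottom), with a log axis for the number of genes. Vertical lines mark the 9 complement genes and their height carries no value; C1s1 lies at 7.41 in MRL and at 1.04 in BL6.

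Genes next to the C1 proteases did not share their levels. Of 59 genes with an annotated start within 500 kilobases of that of C1s1, 22 were in the count table, 19 of them besides C1s1, C1ra and C1rb. The MRL gaps of these 19 ran from 0.0885 to 2.40, with a median of 0.31. The largest belonged to Ptpn6, a phosphatase of blood cells, which had 27.7 CPM in unoperated MRL replicate 1 and 1.74 to 5.18 CPM in the other 7. Lpcat3, a phospholipid enzyme encoded 133 kilobases from C1s1, had 12.5 to 17.7 CPM over all 8 MRL samples. Pianp, 466 kilobases away, was at 5.63 to 14.6 CPM in MRL and 0.0264 to 1.42 CPM in BL6, with all 8 MRL samples alike in being above BL6.

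The genes whose pattern over all 16 samples was most like that of C1s1 were C1ra, Hmga1, D2hgdh, Tcea1 and Unc5a, by the root mean square difference of log2 CPM after centring each gene on its own mean. C1ra differed by 1.95 and the others by 2.53 to 2.83, where C1s1 itself varied by 3.72 about its mean. Hmga1, D2hgdh, Tcea1 and Unc5a were lower in every MRL sample than in any BL6 sample, which C1s1 was not. Over the 8 MRL samples C1ra was again closest at 2.07, followed by Pm20d2, Nt5c1a, Agbl1 and Pdpr at 2.45 to 2.52. Pdpr, a regulator of pyruvate dehydrogenase phosphatase, shows the form of these: 25.7, 91.5, 111 and 87.7 CPM in unoperated MRL and 5.60, 5.86, 4.30 and 57.1 CPM in operated MRL. It was lower after surgery in BL6 also (3.33 to 6.62 against 86.6 to 147 CPM), where C1s1 was not lower.

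RefSeq promoters (GRCm38.p6, 250 bases before to 50 after the start) were given for 7 of the 9 genes. In the C1ra promoter, bases 152 to 300 aligned with bases 1 to 149 of the C1rb promoter with 9 mismatches and 2 gap positions (93.9% identity). Searched on both strands, the octamer ATGCAAAT was found in the promoters of C1ra and C1rb, as in 1.74% of 32851 promoters. The gamma-activated sequence TTCNNNGAA was also found in C1ra and C1rb, as in 8.30% of promoters. Neither was found in the window of C1s1. In both promoters these motifs lie in the aligned stretch, and a match is a description of the letters only.

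Surgery in BL6 was the comparison in which C1s1 and C1ra could be tested, since the BL6 samples had no part in choosing them. The groups share an estimate of the spread in the edgeR fit to all 16 samples. The SEs and p-values of C1s1 and C1ra in that fit therefore still drew on the MRL levels that chose them. Cfd, C4b, Serping1 and Cd59a rose, 4 of 8 members tested, by edgeR's quasi-likelihood test with Benjamini-Hochberg adjustment over all genes. That test called 67.9% of all genes in this comparison (35.1% higher and 32.8% lower). A count of 4 of 8 in either direction is therefore not above the background. All 4 calls were higher, beside the 35.1% of all genes called higher, and this difference was not tested. The median log2 fold change of the 8 was 1.04, against 0.04 over all genes. In bulk muscle a change in the number of cells of a type and a change in RNA per cell cannot be told apart.

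C1s1 had a mean of 31.9 ± 7.10 CPM (SD, n = 4) in unoperated and 65.1 ± 34.9 CPM in operated BL6 muscle, with overlapping groups. The log2 fold change was 1.03 (SE 1.30, adjusted p = 0.493) in the edgeR fit to all 16 samples. C1ra had 1.17 (SE 0.95, adjusted p = 0.281). In edgeR fits to the 8 BL6 samples alone, chosen after seeing the data, C1s1 had 1.01 (SE 0.34, adjusted p = 0.0242) and C1ra had 1.15 (SE 0.40, adjusted p = 0.0296). With C1ra and C1rb summed in the 16-sample edgeR fit, the change was 1.17 (SE 0.35, adjusted p = 0.00803). The estimates hardly moved between these fits, while the SE and with it the call did. With a replicate block in the 16-sample edgeR fit the estimates were lower. They were 0.61 for C1s1 (SE 1.24, adjusted p = 0.675) and 0.77 for C1ra (SE 0.85, adjusted p = 0.436). The 16-sample SEs of C1s1 and C1ra included the spread among MRL samples, for which these genes were picked. On leaving out operated MRL replicate 4, the SE was 0.69 for C1s1 (adjusted p = 0.194, edgeR) and 0.56 for C1ra (adjusted p = 0.0713, edgeR). Without operated BL6 replicate 4, which was highest for both genes, the 16-sample estimates were 0.60 for C1s1 and 0.67 for C1ra.

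C4b encodes C4, the substrate of C1s, and rose after surgery. It stood at 3.09, 2.20, 1.82 and 2.79 CPM in unoperated BL6 and at 14.2, 4.96, 13.7 and 57.3 CPM in operated BL6. The groups did not overlap, and replicate 4 was far above the other operated samples. The log2 fold change was 3.19 (SE 0.62, adjusted p = 0.000432, edgeR), and 2.14 (adjusted p = 0.00109) without replicate 4. Reads of C4b are shared in part with its copy C4a, not analysed here: 65.4% of the 50-base words of C4b occurred in no other gene. For 100-base words this share was 84.8%.

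In MRL, C4b stood at 5.99, 1.92, 2.29 and 2.71 CPM without surgery and at 7.23, 5.41, 10.4 and 16.8 CPM with it. Operated replicate 2 lay below unoperated replicate 1, so the groups overlapped. The log2 fold change was 1.63 (SE 0.59, adjusted p = 0.0358, edgeR). This call was lost (adjusted p = 0.0696 to 0.104) on leaving out replicate 2, 3 or 4 of the unoperated or replicate 3 or 4 of the operated MRL group, and with total-count scaling (adjusted p = 0.0637). Operated replicates 1, 2 and 3 of MRL, with 1 count of C1s1 each, had more C4b than the unoperated replicates 2, 3 and 4, a comparison that crosses the surgical groups. Within the operated group these samples had less C4b than replicate 4, in which C1s1 was not low. Within the unoperated group replicate 1, in which C1s1 was low, had the most C4b.

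C3, on which all pathways converge, did not pass the test in either strain. Unoperated BL6 muscle had 148, 71.3, 44.6 and 39.5 CPM, and operated BL6 muscle had 82.8, 58.6, 87.8 and 143 CPM. Unoperated MRL muscle had 80.3, 58.9, 56.6 and 73.0 CPM, and operated MRL muscle had 54.1, 77.0, 114 and 124 CPM. The groups overlapped in both strains, and the highest BL6 value was that of an unoperated sample. Log2 fold changes were 0.30 (SE 0.38, adjusted p = 0.498) in BL6 and 0.46 (SE 0.38, adjusted p = 0.327) in MRL by edgeR. Without unoperated BL6 replicate 1, which held that highest value, the BL6 change was 0.85 with an adjusted p of 0.0325.

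Cfd, encoding factor D, had the largest change among the members tested in either strain. It stood at 25.2, 28.2, 12.9 and 21.2 CPM in unoperated and 123, 51.3, 165 and 565 CPM in operated BL6. In MRL it stood at 25.3, 22.0, 8.39 and 24.4 CPM without surgery and 99.8, 100, 122 and 281 CPM with it. Every operated sample exceeded every unoperated sample, in either strain. Log2 fold changes were 3.37 (SE 0.62, adjusted p = 0.000295) in BL6 and 2.91 (SE 0.61, adjusted p = 0.00287) in MRL by edgeR. Without operated BL6 replicate 4 the BL6 change was 2.36 (adjusted p = 0.000618). The adipocyte markers (5 of 6 in the table, among them Adipoq, Plin1 and Fabp4) all rose with surgery in both strains, from a sum of 209 to 281 CPM to 1223 to 1690 CPM in BL6 and from 263 to 371 CPM to 1102 to 1907 CPM in MRL, and their part in the result was not tested.

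Serping1 encodes the C1 inhibitor, which inactivates C1r and C1s. It stood at 107, 74.4, 60.3 and 52.0 CPM in unoperated and 140, 72.9, 128 and 264 CPM in operated BL6. In MRL it stood at 137, 99.0, 91.9 and 97.9 CPM without surgery and 106, 123, 183 and 167 CPM with it. The groups overlapped in both strains. In BL6 the log2 fold change was 1.04 (SE 0.32, adjusted p = 0.00958, edgeR), which passed the test. Without operated BL6 replicate 4 it was 0.62 (adjusted p = 0.0555) and did not pass. In MRL it was 0.44 (SE 0.32, adjusted p = 0.257). In the 4 MRL samples with C1s1 at or under the floor Serping1 stood at 106 to 183 CPM, and in the other 4 MRL samples at 91.9 to 167 CPM, so the ranges overlapped.

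Cd55 encodes decay-accelerating factor, a membrane protein that takes apart the C3-cutting enzymes. It stood at 33.0, 24.8, 11.3 and 12.7 CPM in unoperated and 30.4, 27.3, 27.5 and 22.6 CPM in operated BL6, with overlap. In MRL it stood at 29.6, 24.0, 21.2 and 21.9 CPM without surgery and 41.0, 40.1, 29.9 and 41.2 CPM with it, without overlap. The BL6 change was 0.40 (SE 0.26, adjusted p = 0.189, edgeR), and 0.73 (adjusted p = 0.0125) without unoperated BL6 replicate 1. In MRL the change of 0.65 (SE 0.26, adjusted p = 0.0529, edgeR) missed the threshold. It passed with DESeq2 (adjusted p = 0.0368), with a replicate block (adjusted p = 0.0209), and on leaving out unoperated BL6 replicate 1, 3 or 4, operated BL6 replicate 4 or unoperated MRL replicate 1 (adjusted p = 0.0214 to 0.0478).

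Cd59a encodes a membrane protein that blocks the final pore of complement, and was the only one of the 6 members tested between the strains that was called. It stood at 20.3, 17.2, 20.8 and 18.1 CPM in unoperated BL6 and at 31.8, 31.3, 27.7 and 31.5 CPM in unoperated MRL. After surgery it stood at 24.4, 32.0, 23.9 and 21.0 CPM in BL6 and at 42.1, 33.9, 36.9 and 34.7 CPM in MRL. Every MRL sample lay above every BL6 sample of the same surgical group. The log2 difference of MRL minus BL6 was 0.68 (SE 0.12, adjusted p = 0.00124) without surgery and 0.55 (SE 0.12, adjusted p = 0.00634) after it by edgeR.

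Surgery raised Cd59a in BL6 by 0.41 on the log2 scale (SE 0.12, adjusted p = 0.00772, edgeR), with groups that did not overlap. The MRL groups did not overlap either, and the change there was 0.27 (SE 0.12, adjusted p = 0.0735, edgeR). That value passed the test with total-count scaling (0.32, adjusted p = 0.0294) and on leaving out operated BL6 replicate 2 or 4 (adjusted p = 0.0294 and 0.0450).

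**Figure D4:**
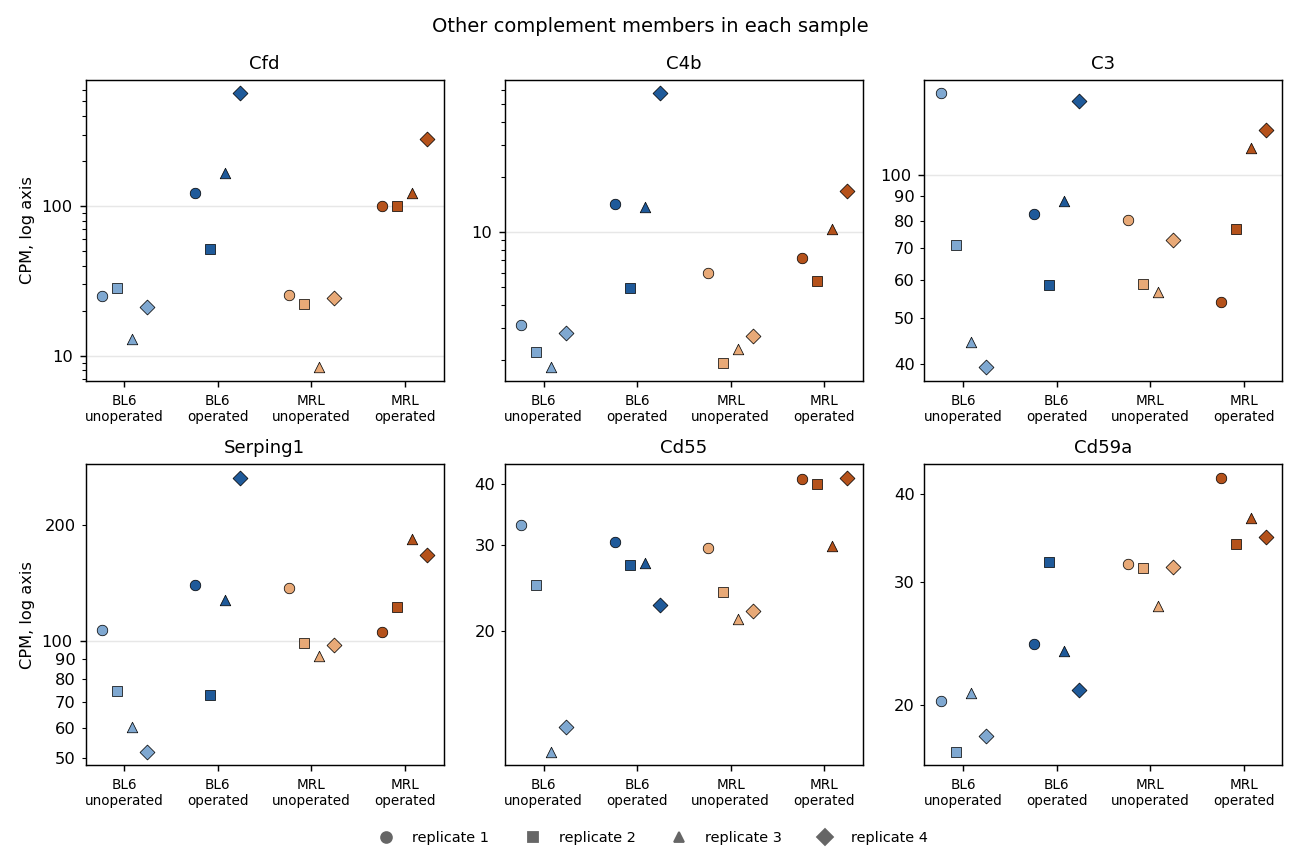
CPM of Cfd, C4b, C3, Serping1, Cd55 and Cd59a by group on log axes that differ between panels, with 1 point per sample and the marker giving the replicate number. Cfd rises from 8.39 to 28.2 CPM without surgery to 51.3 to 565 CPM with it, and Cd59a is higher in MRL than in BL6 in each surgical group.

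In MRL, Cfd and C4b were called higher, 2 of the 6 members tested, where 45% of all genes were called (22.3% higher and 22.7% lower). Their median log2 fold change was 0.56 for the 6, against 0.01 over all genes. For the difference between the surgery effects of the strains, edgeR called 0 of the 6 (lowest adjusted p 0.362), where 0.248% of all genes were called (0.154% higher and 0.0939% lower). None of the 6 had an unadjusted p under 0.05 in edgeR, 1 had in DESeq2, and DESeq2 also called 0. The largest difference was that of C4b, at -1.56 on the log2 scale (SE 0.83), and it was -0.50 without operated BL6 replicate 4. For Cfd it was -0.46 (SE 0.81). A smaller effect in 1 strain was therefore not shown for any of these genes.

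Between the strains, Cd59a was the 1 of 6 members called without surgery, where 10.4% of all genes were called (5.02% higher and 5.36% lower), and the 1 of 6 called after surgery, where 12.9% were (7.6% higher and 5.27% lower). Calls over all genes split into 588 higher and 628 lower without surgery and 890 higher and 617 lower after it. With total-count scaling the splits were 742 to 313 and 994 to 383. Other differences without surgery were 0.54 for Serping1 (SE 0.32, adjusted p = 0.325), 0.38 for C4b (SE 0.60, adjusted p = 0.752) and 0.24 for Cd55 (SE 0.26, adjusted p = 0.622) by edgeR. Those of C3 and Cfd were -0.17 and -0.13. After surgery C4b had -1.18 (SE 0.57, adjusted p = 0.202), or -0.13 (adjusted p = 0.880) without operated BL6 replicate 4, and Cfd had -0.58 (SE 0.57, adjusted p = 0.556).

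The authors' deposited table gave log2 fold changes for the C1 proteases under headers that name the strain and surgery. For surgery in MRL it lists -0.53 for C1s1, -0.51 for C1ra and 3.25 for C1rb. For operated MRL against operated BL6 the authors' deposited table lists -2.31, -1.67 and 10.66. In the counts as labelled, C1s1 ran from 0.0347 to 56.1 CPM within operated MRL muscle. Mean C1rb as labelled was 4.97 CPM in unoperated and 14.3 CPM in operated MRL, a smaller rise than the listed 3.25. For C4b the authors' deposited table lists 2.27 for surgery in BL6 and 2.26 in MRL, where the edgeR fit to 16 samples gave 3.19 and 1.63. For Serping1 in MRL the authors' deposited table lists 0.67 with a false discovery rate of 0.0350, whereas the edgeR fit gave 0.44 and no call. The submitters' processing notes name edgeR, but the design and scaling behind the authors' deposited table are not given in the sources used here.

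Other complement genes were taken from a list of 46, of which 21 were in the count table. In BL6, 12 of the 21 rose and 3 fell after surgery, with a median log2 fold change of 1.42 against 0.04 over all genes (14 rose and 1 fell with total-count scaling). Of all genes 67.9% were called in this comparison, 35.1% higher and 32.8% lower, so 15 of 21 called in either direction is near the background. By direction, 12 of 21 higher stands beside 35.1%, and 3 of 21 lower beside 32.8%. That difference was not tested. The partners of C1r and C1s all rose: C1qa, C1qb and C1qc, the chains of C1q, by 2.27 (SE 0.64), 2.29 (SE 0.66) and 2.20 (SE 0.64), and C2, the other substrate of C1s, by 2.08 (SE 0.41). Cd93, a membrane protein of endothelial and myeloid cells, rose by 1.33 (SE 0.21), Vtn, which binds the terminal complex, by 1.43 (SE 0.24), and C5ar1, the C5a receptor, by 1.95 (SE 0.48). Cd46, Clu and Cr1l, regulators of complement, fell by 0.77, 0.67 and 0.30. The call of C1qc was lost without operated BL6 replicate 4 (adjusted p = 0.0542), and that of Clu without unoperated replicate 1 or operated replicate 3. Those of Clu and Cr1l were also lost with total-count scaling (adjusted p = 0.0531 and 0.297). Without operated BL6 replicate 4, 11 rose and 4 fell. Macrophage markers (7 of 7 in the table) summed to 38.0 to 140 CPM in unoperated and 82.0 to 523 CPM in operated BL6, 5 of the 7 passed the test, and their part in these changes was not tested. Endothelial markers (5 of 5 in the table) summed to 287 to 375 CPM in unoperated and 600 to 767 CPM in operated BL6. Of these 5, 4 rose, and their part was not tested either.

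In MRL, 6 of the 21 rose and none fell, with a median of 0.38 against 0.01 over all genes, where 45% of all genes were called (22.3% higher and 22.7% lower). Among them were Cd93 (1.23, SE 0.21), Masp2, a protease of the lectin pathway (1.03, SE 0.24), Vtn (0.69, SE 0.23), C2 and C7. The calls of Vtn, C2 and C7 were lost without replicate 2, 3 or 4 of the unoperated or replicate 3 of the operated MRL group, that of C2 also without operated replicate 1 and that of C7 without operated replicate 4. Those of C2 and C7 were also lost with total-count scaling (adjusted p = 0.0576 and 0.0625, edgeR), which left 4 called. Endothelial markers summed to 218 to 301 CPM in unoperated and 308 to 784 CPM in operated MRL, all 5 rose, and their part in these changes was not tested. C1qa, C1qb and C1qc had 0.46 (SE 0.61), 0.46 (SE 0.63) and 0.38 (SE 0.61) and did not pass. C1qa stood at 61.5, 15.2, 12.8 and 17.7 CPM in unoperated MRL, high in replicate 1, the sample with the high macrophage markers. Without that replicate 8 of the 21 were called. Without replicate 2, 3 or 4 of the unoperated or replicate 3 of the operated MRL group, 3 were.

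**Figure D5:**
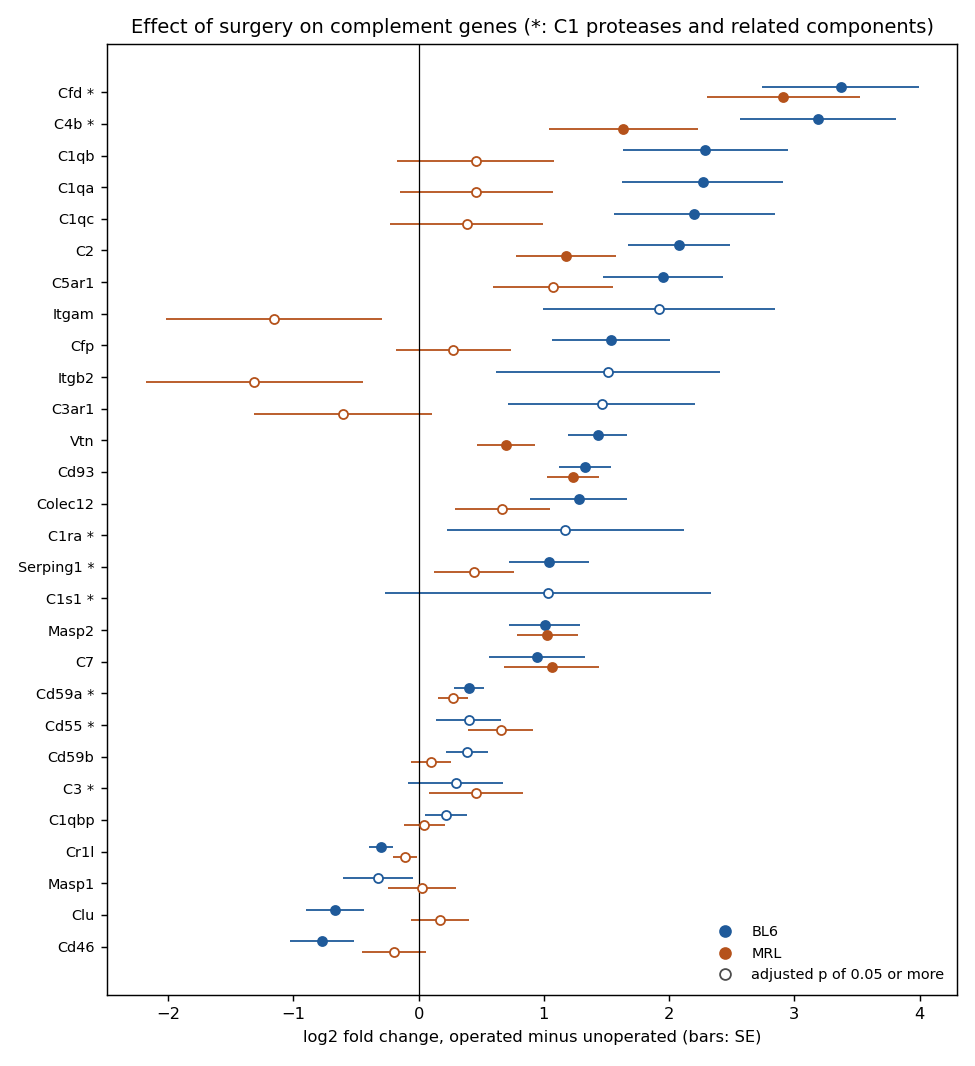
Log2 fold change with surgery (horizontal axis, bars are SE) for 8 of the C1 proteases and related components, marked with *, and 20 other complement genes, in BL6 (blue) and MRL (orange), from the edgeR fit to 16 samples; open points have an adjusted p of 0.05 or more. Cfd and C4b have the largest estimates in BL6 (3.37 and 3.19); C1s1 and C1ra are shown for BL6 only.

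For the difference between the surgery effects 0 of the 21 were called by edgeR, 4 had an unadjusted p under 0.05, and DESeq2 called 0 as well. Between unoperated strains Masp2 (2.86, SE 0.28) and Cd59b (0.98, SE 0.17), the copy of Cd59a, were higher in MRL. Clu had -0.78 (SE 0.23, adjusted p = 0.0433, edgeR), a call lost with total-count scaling (adjusted p = 0.105) and on leaving out 9 of the 16 samples in turn (highest adjusted p = 0.113). These 9 were all unoperated BL6 replicates, operated BL6 replicate 1, unoperated MRL replicates 2, 3 and 4, and operated MRL replicate 1. After surgery Masp2 (2.88, SE 0.27) and Cd59b (0.70, SE 0.17) were higher in MRL and none was lower. Cd59a and Cd59b thus differed between the strains in the same direction, and 96.1% of the 50-base words of Cd59a occurred in no other gene. The share for Cd59b was not measured, so how far reads of Cd59a entered the lower counts of Cd59b is not known.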

How the data were processed

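The authors deposited whole-number counts per gene, read as raw from their values, with 1 column per sample. Reads were handled with FastQC, STAR and the mm10 build, and edgeR was used, per the submitters' processing notes; the counting program and its use of strand are not given in the sources used here. The authors' deposited table gives log2 fold changes and p-values with false discovery rates, per the file headers.

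The 9 genes and the gene lists were chosen with earlier results of these data known. From the deposited counts, R 4.3.3 with edgeR 4.0.16 made TMM factors, removed low genes (filterByExpr, minimum count 10, 11709 genes left) and fitted all 16 samples with quasi-likelihood and a mean for each group. SEs came from the F statistic. P-values were adjusted by Benjamini-Hochberg over all genes tested and called under 0.05. For log2 CPM the prior count was 2. Scripts were tested on simulated data. DESeq2 1.42.0, other scalings, no filter, a replicate block, summed C1ra and C1rb, and leaving out each sample were alternatives.

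Floors and intervals cover counting error only. No replicate pair agreed within sampling noise. Other complement genes are named up to 4 per direction by adjusted p; C1qa, C1qb, C1qc and, for its gap, Itgb2 fall outside that rule, with C2 and C7 in MRL, and were picked with their values in view. A gene selected by the rule but not reported here was not replaced. Gene IDs were matched to GENCODE M21 (11708 of 11710).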

Additional observations from a re-analysis of the deposited data

Results flagged for a closer look

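Each member, and the sum of C1ra and C1rb, was taken in each group, leaving out C1rb in BL6, where it had 3 counts or fewer. In these 38 sets of 4 samples the highest or lowest sample was compared with the rest by Dixon's ratio at its 95% critical value, which chance passes in about 1 in 20 sets. It passed in 8. Of these, 4 are MRL levels of C1s1, C1ra and C1rb, the values for which these genes were picked, so the 8 are not read against that rate. C1s1 was at 0.0917 CPM in unoperated MRL replicate 1 and at 56.1 CPM in operated MRL replicate 4, each apart from its group. In the same samples C1rb stood apart at 15.6 CPM and C1ra at 18.2 CPM. Cfd in operated MRL replicate 4 (281 CPM), Serping1 in unoperated MRL replicate 1 (137 CPM), Cd55 in operated MRL replicate 3 (29.9 CPM) and Cd59a in unoperated MRL replicate 3 (27.7 CPM) also passed. The flags of 1 sample are not independent of each other, and their cause was not tested.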

How the results depend on the processing

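Directions and calls of the members were recomputed under 6 other settings and on leaving out each of 16 samples. Calls of Cfd and C4b in BL6, Cfd in MRL and Cd59a in BL6 and between the strains held in all of them; other call changes stand beside the results. Leaving out samples gave 3 to 8 called complement genes of the list for surgery in MRL (6 with all samples), 2 to 5 between unoperated strains (3; DESeq2 gave 5) and 2 to 4 between operated strains (2). Over all genes it gave 3490 to 6145 calls for surgery in MRL and 1 to 69 for the interaction. That interaction had 29 calls, 14 with total-count scaling, 250 with DESeq2 and 2 with the replicate block. The block gave 7930, 5197, 1146 and 1354 calls over all genes for surgery in BL6 and MRL and for the strains without and with surgery. Samples share only a number: the mean correlation of same-numbered samples was -0.14, 0.09, 0.16 and 0.16 in these comparisons, with 0, 2, 2 and 1 of 4 closest to their own number. Of the members, the block moved Cd55 in MRL past the threshold.

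Signs turned only for values that had not passed the test. With operated strains the block gave 0.0372 for C3 and 0.00923 for Serping1, and total-count scaling gave 0.000962 for Cfd between unoperated strains. On leaving out samples the interaction ran from -0.39 to 0.45 for C3, from -0.96 to 0.56 for Cfd and from -0.0704 to 0.46 for Cd55. Between unoperated strains C3 ran from -0.39 to 0.37, C4b from -0.11 to 0.57 and Cfd from -0.31 to 0.12. Between operated strains C3 ran from -0.20 to 0.28, Cfd from -1.09 to 0.43 and Serping1 from -0.29 to 0.36. Total-count scaling moved the median log2 change of all genes by 0.14 for surgery in BL6 and between unoperated strains. The cause of these changes was not tested. Depth limits C1rb in BL6 and C1s1 in 4 MRL samples, which lay at or under 3 counts.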
